A study of Mus musculus with 24 samples.

Results

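The comparison sets villi against crypts of the small intestine of mice that had lost Rb. It uses 6 of the 24 arrays of the study, 3 of villi and 3 of crypts, chosen by the titles of the samples. The study profiled total RNA on Affymetrix mouse arrays, on which a set of short probes stands for each transcript, in 8 groups of 3 arrays. Wild-type mice (WT), Rb-/- mice (Rb), mice without E2f1, E2f2 and E2f3 (TKO) and mice without those and Rb (QKO) each gave crypts and villi. All groups were 2 months old and of a C57BL/6;FVB background, and all of them, WT included, had received beta-naphthoflavone into the peritoneum 7 days before the intestine was taken. The sources used here give neither what drove the deletion nor in which cells it took place, nor how many animals gave each RNA. Each of 18193 genes was represented by 1 probe set, the one with the highest mean over the 24 arrays. The difference villi minus crypts within a genotype is called the gradient, in log2 units, so that a positive value means a higher level in villi.

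The lining of the small intestine renews itself along the crypt-villus axis. Stem cells at the crypt base, marked by Lgr5, feed a zone of dividing progenitors. Their daughters leave the cell cycle as they move onto the villus, where most become absorptive enterocytes that digest and take up sugars, peptides, fats and minerals. Paneth cells stay at the crypt base, whereas goblet, enteroendocrine and tuft cells are scattered through the lining. Rb, the product of Rb1, is a pocket protein that binds E2f transcription factors and holds back genes of DNA replication and cell division in cells that have left the cycle. The question put to the data is which parts of the gradient were kept and which were flattened without Rb.

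As a check of the labels, Rb1 was read first, on its brighter probe set of 2. Its log2 values were 10.70, 10.93 and 10.74 in WT villi and 8.84, 9.36 and 9.19 in Rb villi, which do not overlap. In crypts it read 8.23, 10.25 and 8.87 on the arrays labelled Rb crypts 1, 2 and 3, and 10.31, 10.59 and 8.46 on those labelled WT crypts 1, 2 and 3. The array labelled Rb crypts 2 was thus high and that labelled WT crypts 3 low, against their labels, and every statement on crypts refers to the arrays so labelled. These 2 are called the discordant arrays. Most counts of gene lists are given with and without 1 or both of them, and the named genes whose call was lost without them are listed after the counts. The array labelled Rb crypts 3 stood apart in the other direction, with low crypt genes and high villus genes. Y-linked genes had mean levels of 8.12 and 8.50 on Rb villi 1 and 3, but 3.18 on Rb villi 2 and 3.08 to 3.24 on the Rb crypt arrays, so sex differs between the arrays compared. The hybridization controls, bacterial RNA added with the sample, read 10.93 to 11.11 on the Rb crypt arrays and 10.28 to 10.35 on the Rb villus arrays. Crypts and villi therefore also differ by a technical measure, with WT means of 11.04 in crypts and 10.36 in villi, and its part in the results was not tested. Defining genes of the lining were high in both compartments: Epcam read 13.76 to 13.87 on all 6 Rb arrays. The 10 epithelial markers had mean levels of 13.24 to 13.26 in Rb crypts and 13.28 to 13.31 in Rb villi. Since each array holds many cells, fewer cells of a type and less RNA per cell cannot be told apart. Whether the 3 arrays of a group stand for separate animals is not said in the labels. The p-values and SEs use the spread between arrays, with 1 estimate per gene shared by all 8 groups. They do not measure the spread of the Rb arrays alone, and cannot be read as that between animals.

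Of the 10 named genes with the largest positive difference between the Rb and WT gradients, Rrm2, Prim1, Pola1 and Pclaf act in DNA replication. The promoters printed here belong to the 4 genes of the replication list with the largest loss of gradient among those whose promoter held an E2f-type motif, and are shown so that the motif can be read in its place. The motif was searched on both strands as TTTCCCGC, TTTGGCGC, TTTCGCGC or TTTGCCGC, which can overlap one another and their reverse complements. Capitals mark the matches in the 300 bases from 250 before to 50 after the start, read 5′ to 3′ on the gene's strand (RefSeq, GRCm38.p6).
Zfp367, chr13:64153150-64153449, minus strand: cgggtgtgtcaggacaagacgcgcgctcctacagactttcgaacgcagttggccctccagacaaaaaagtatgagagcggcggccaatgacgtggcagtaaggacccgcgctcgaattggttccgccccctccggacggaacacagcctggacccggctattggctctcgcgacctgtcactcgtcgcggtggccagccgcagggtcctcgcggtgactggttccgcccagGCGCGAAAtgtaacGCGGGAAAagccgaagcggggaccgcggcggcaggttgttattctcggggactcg
Pola1, chrX:93632106-93632405, minus strand: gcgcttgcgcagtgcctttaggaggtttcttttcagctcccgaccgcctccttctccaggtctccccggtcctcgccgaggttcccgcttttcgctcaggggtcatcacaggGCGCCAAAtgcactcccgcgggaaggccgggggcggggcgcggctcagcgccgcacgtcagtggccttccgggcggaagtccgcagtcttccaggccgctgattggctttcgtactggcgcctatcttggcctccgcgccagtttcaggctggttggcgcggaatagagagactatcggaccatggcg
Mcm6, chr1:128359656-128359955, minus strand: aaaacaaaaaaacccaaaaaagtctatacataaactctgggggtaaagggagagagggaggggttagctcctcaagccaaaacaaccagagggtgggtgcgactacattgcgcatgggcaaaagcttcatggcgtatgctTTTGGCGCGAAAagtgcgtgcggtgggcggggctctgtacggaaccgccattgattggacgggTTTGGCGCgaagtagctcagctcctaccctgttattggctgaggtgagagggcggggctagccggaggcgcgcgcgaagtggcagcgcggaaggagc
Mcm5, chr8:75109259-75109558, plus strand: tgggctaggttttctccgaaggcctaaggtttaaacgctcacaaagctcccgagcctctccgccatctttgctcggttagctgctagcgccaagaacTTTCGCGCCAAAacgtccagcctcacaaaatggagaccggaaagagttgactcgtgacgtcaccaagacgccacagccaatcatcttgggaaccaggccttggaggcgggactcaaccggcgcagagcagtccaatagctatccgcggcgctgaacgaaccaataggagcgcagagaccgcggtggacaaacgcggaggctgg
Zfp367 held GCGCGAAA and GCGGGAAA, starting 19 and 5 bases before the start. Pola1 held GCGCCAAA 138 bases before it, Mcm6 held TTTGGCGC 110 and 47 bases before it with GCGCGAAA at 106, and Mcm5 held TTTCGCGC at 153 and GCGCCAAA at 149. A RefSeq promoter was matched for 14368 of the 18193 genes, and 546 of these (3.8%) held the motif. A match describes these letters and is not a measured site of binding.

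Without Rb, the gradient ran in the same direction as in WT but was shallower. Across the 18193 genes the Rb gradient and the WT gradient correlated at a Pearson r of 0.73 and a Spearman rho of 0.67. The slope of Rb on WT was 0.47, and the SD over genes was 0.43 in Rb against 0.67 in WT. Leaving out 1 array moved the slope between 0.40 (without Rb crypts 2) and 0.57 (without Rb crypts 3). Genes are not independent replicates, and no p is given. In limma, at a Benjamini-Hochberg adjusted p under 0.05, 3140 genes (17.3%) had a gradient in Rb. Of these, 1385 (7.61%) were higher in villi and 1755 (9.65%) were higher in crypts. In WT, 6803 genes (37.4%) passed the same test, 3417 (18.8%) higher and 3386 (18.6%) lower in villi. The difference of the gradients, Rb minus WT, passed for 950 genes (5.22%), positive for 749 (4.12%) and negative for 201 (1.1%). Counts of list members below are to be read beside these shares over all genes. The Rb count was 1212 without the array labelled Rb crypts 2, 4042 without that labelled Rb crypts 3, 1793 without Rb crypts 1 and 1633 without Rb villi 1. With the Rb arrays fitted alone it was 2276. The difference was called for 768 genes with both arrays that go against their labels left out, for 601 without Rb villi 3 and for 629 without WT villi 3. With each array centred on its median, the positive share of the difference was 58.4% of 1195 calls, against 78.8% of 950, and the median WT gradient over all genes was 0.24 against 0.08.

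**Figure D1:**
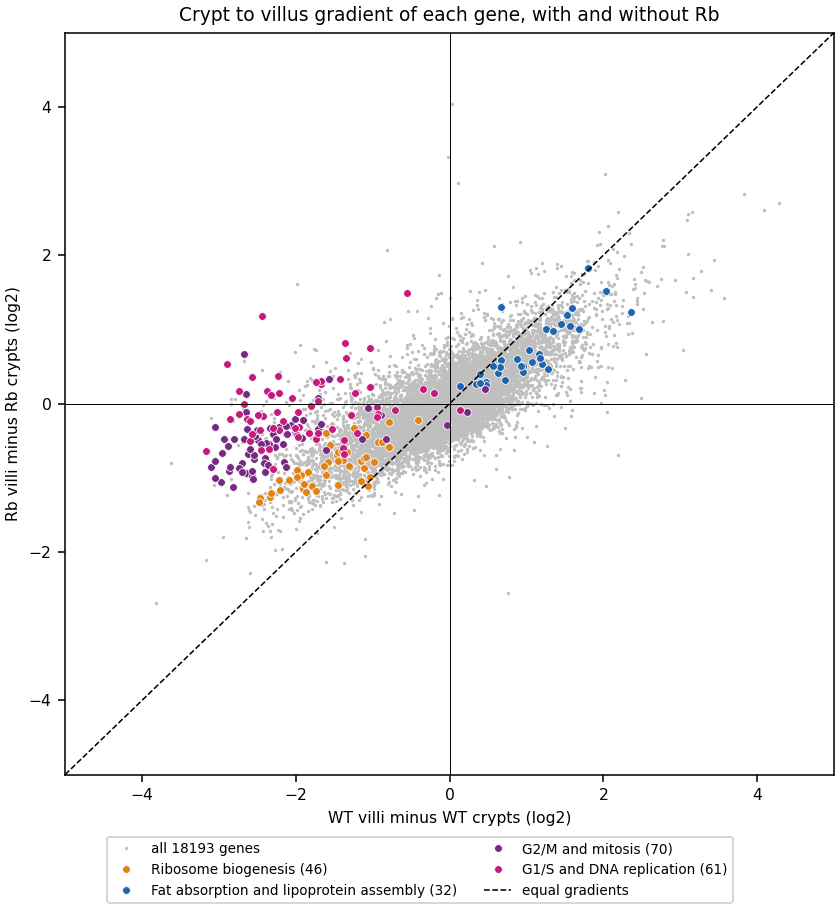
Each point is a gene, with the WT gradient (villi minus crypts, log2) on the horizontal axis and the Rb gradient on the vertical axis. Grey points are all 18193 genes, coloured points the members of 4 lists, and the dashed line marks equal gradients. The replication list has medians of -1.97 on the horizontal and -0.14 on the vertical axis and the mitosis list of -2.40 and -0.49, whereas fat absorption genes lie above 0 on both.

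Loss of gradient was called more often on the crypt side than on the villus side. Of the 3386 genes higher in WT crypts, 1414 (41.8%, or 7.77% of all genes) were kept, meaning called in the same direction in Rb. A further class, flattened, was called in WT with a significant difference of gradients towards 0 or past it. It held 717 genes (21.2%, or 3.94% of all genes), of which 182 were also kept and 17 were turned, that is, called higher in Rb villi. Of the 3417 genes higher in WT villi, 1063 (31.1%, or 5.84% of all genes) were kept and 174 (5.09%, or 0.956% of all genes) flattened, of which 15 were also kept and 6 were turned. The rest, 1437 on the crypt side and 2195 on the villus side, passed neither test and are undecided. The median gradient of crypt-side genes was -0.43 in Rb and -0.88 in WT, and that of villus-side genes was 0.30 and 0.62. Crypt-side genes thus had the larger WT gradients to lose. In simulated data, 52.2% of differences of size 1 were called and 5.97% of size 0.5. Whether the unequal shares of flattened genes follow from the size of the gradients was not tested. These genes were chosen for being called in WT, so their WT medians are large by that choice. Leaving out Rb crypts 1, Rb crypts 2 or Rb villi 1 left 830, 624 or 750 kept crypt-side genes and 623, 431 or 641 kept villus-side genes. Of the villus-side genes 111, 102, 113 or 73 were flattened without Rb crypts 3, Rb villi 1, Rb villi 2 or Rb villi 3, and 101 or 75 without WT crypts 2 or WT villi 3. With arrays centred on their medians, 469 villus-side genes (7.06%) and 663 crypt-side genes (23.2%) were flattened.

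Of the named genes, 81 were called in Rb and 49 in the difference from WT. Without the array labelled Rb crypts 2, 42 and 42 of them stayed called, and without it and that labelled WT crypts 3, 44 and 40. The named Rb calls lost without Rb crypts 2 were, among cycle and repair genes, those of Zfp367, Cdt1, Ccne2, Ccnd1, Cdk6, Cdkn1a, E2f2, Atr, Atad5 and Etaa1. Among stem cell, Paneth, Notch, endocrine and tuft cell genes they were those of Ascl2, Axin2, Bmi1, Kcnn4, Reg4, Habp2, Notch1, Dtx4, Numb, Gip, Chgb, Neurog3, Rgs13 and Dclk1. Among absorptive, metabolic and other genes they were those of Apoa4, Slc5a1, Slc15a1, Slc6a19, S100g, Tfrc, Klf4, Cyp2c29, Xdh, Ugdh, Mgp, Dcn, Ifit1, Rtp4 and Bcl2l11. The named differences lost were those of Crp, E2f5, Klf15, Lin54, Scn2b, Siglecf and Tfrc. Leaving out WT crypts 3 as well, the Rb call of Lss and the differences of Arsg, E2f2 and Plk1 were lost too, whereas the Rb calls of Cdk6, Notch1 and Slc6a19 and the difference of Scn2b held.

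Replication genes lost most of their gradient. Of 61 replication genes (G1/S and DNA synthesis) that were measured, 57 were lower in WT villi and 0 higher, with a median gradient of -1.97. In Rb 6 were lower and 3 higher, with a median of -0.14, and the difference was positive for 53 and negative for 0, with a median of 1.85. The median of all genes was 0.08 in WT, -0.03 in Rb and -0.09 for the difference. The mean level of the list was 8.92, 8.91 and 9.32 in WT crypts and fell to 7.27, 7.19 and 7.14 in WT villi. In Rb it was 9.40, 8.94 and 9.17 in crypts and 9.11, 9.06 and 9.13 in villi. The Rb villus arrays thus stayed within the range of the Rb crypt arrays, and the lowest Rb crypt array was the one labelled Rb crypts 2. Without both arrays that go against their labels, the difference was positive for 46 and negative for 0, with a median of 1.59.

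The helicase that unwinds replication origins showed the pattern gene by gene. Mcm5 fell in WT from 10.85, 10.66 and 10.95 in crypts to 8.07, 7.82 and 8.0 in villi. In Rb it read 11.02, 10.77 and 10.40 in crypts and 10.69, 10.32 and 10.56 in villi. Its WT arrays separated widely, whereas the Rb villus arrays overlapped the Rb crypt arrays. The Rb gradient of -0.21 ± 0.17 (SE, n = 3 arrays a group) was not called, and the difference from WT was 2.64 ± 0.23 (limma, adjusted p = 2.1e-06). Mcm6, another subunit, read 11.997, 11.37 and 12.07 in Rb crypts and 11.75, 11.73 and 11.93 in Rb villi, against 8.46 to 9.29 in WT villi, and differed by 2.67 ± 0.34 (limma, adjusted p = 4e-05). The subunit Mcm7 kept part of its gradient, falling from 12.30, 11.99 and 12.08 to 11.64, 11.56 and 11.65 in Rb. These Rb arrays did not overlap, and the Rb gradient of -0.51 ± 0.14 passed the test (limma, adjusted p = 0.014), beside -2.59 in WT. Mcm7 therefore belonged to both the kept and the flattened genes.

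Among polymerase and nucleotide genes, Rrm2, Pola1 and Prim1 lost their gradient and Pold2 kept part of it. Rrm2, a subunit of ribonucleotide reductase, which makes the building blocks of DNA, read 11.09, 9.98 and 10.99 in Rb crypts and 11.46, 10.86 and 11.33 in Rb villi. In WT it read 10.04, 9.85 and 10.99 in crypts and 7.56, 7.47 and 7.15 in villi. All 3 Rb villus arrays were above all WT villus arrays, and the difference of gradients was 3.43 ± 0.40 (limma, adjusted p = 2.1e-05). Pola1, the catalytic subunit of the polymerase that starts new strands, had a Rb gradient of 0.16 ± 0.21, a WT gradient of -2.74 and a difference of 2.90 ± 0.30. Its primase partner Prim1 had a Rb gradient of 0.35 ± 0.23, a WT gradient of -2.57 and a difference of 2.92 ± 0.33. Pcna, the sliding clamp of the polymerases, read 13.36, 12.69 and 13.51 in Rb crypts and 13.62, 13.49 and 13.46 in Rb villi, and overlapped between them. The accessory subunit Pold2 fell in Rb, by 0.89 ± 0.19 (limma, adjusted p = 0.0038), with Rb villi at 9.10 to 9.21 and Rb crypts at 9.84 to 10.30.

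Within the list, 3 genes were higher in Rb villi than in Rb crypts. The first, Zfp367, encodes a zinc finger protein. It read 9.35, 7.49 and 8.93 in Rb crypts and 10.15, 9.47 and 9.68 in Rb villi, against 8.14, 7.94 and 9.42 in WT crypts and 5.99, 6.36 and 5.86 in WT villi. All Rb villus arrays lay above all Rb crypt arrays, the reverse of WT except that WT crypts 3 was close to the Rb arrays. The Rb gradient was 1.18 ± 0.37 (limma, adjusted p = 0.032) and the WT gradient -2.43, a difference of 3.61 ± 0.52 (limma, adjusted p = 0.00018). Cdt1, which loads the helicase onto origins, rose from 11.42, 10.71 and 11.41 to 11.91, 11.75 and 11.71 in Rb (0.61 ± 0.18, limma, adjusted p = 0.024) and had a WT gradient of -1.35. Ccne2, an E-type cyclin that drives entry into S phase, read 9.49, 7.83 and 9.90 in Rb crypts and 10.80, 10.49 and 10.38 in Rb villi. Its Rb gradient of 1.48 ± 0.46 passed (limma, adjusted p = 0.029), and its difference from WT, 2.04 with a 95% interval of 0.69 to 3.39, did not (limma, adjusted p = 0.074). For these genes the array labelled Rb crypts 2 was the lowest Rb array. Without it 0 genes of the list were called higher in Rb villi by limma and 2 had an unadjusted p under 0.05.

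**Figure D2:**
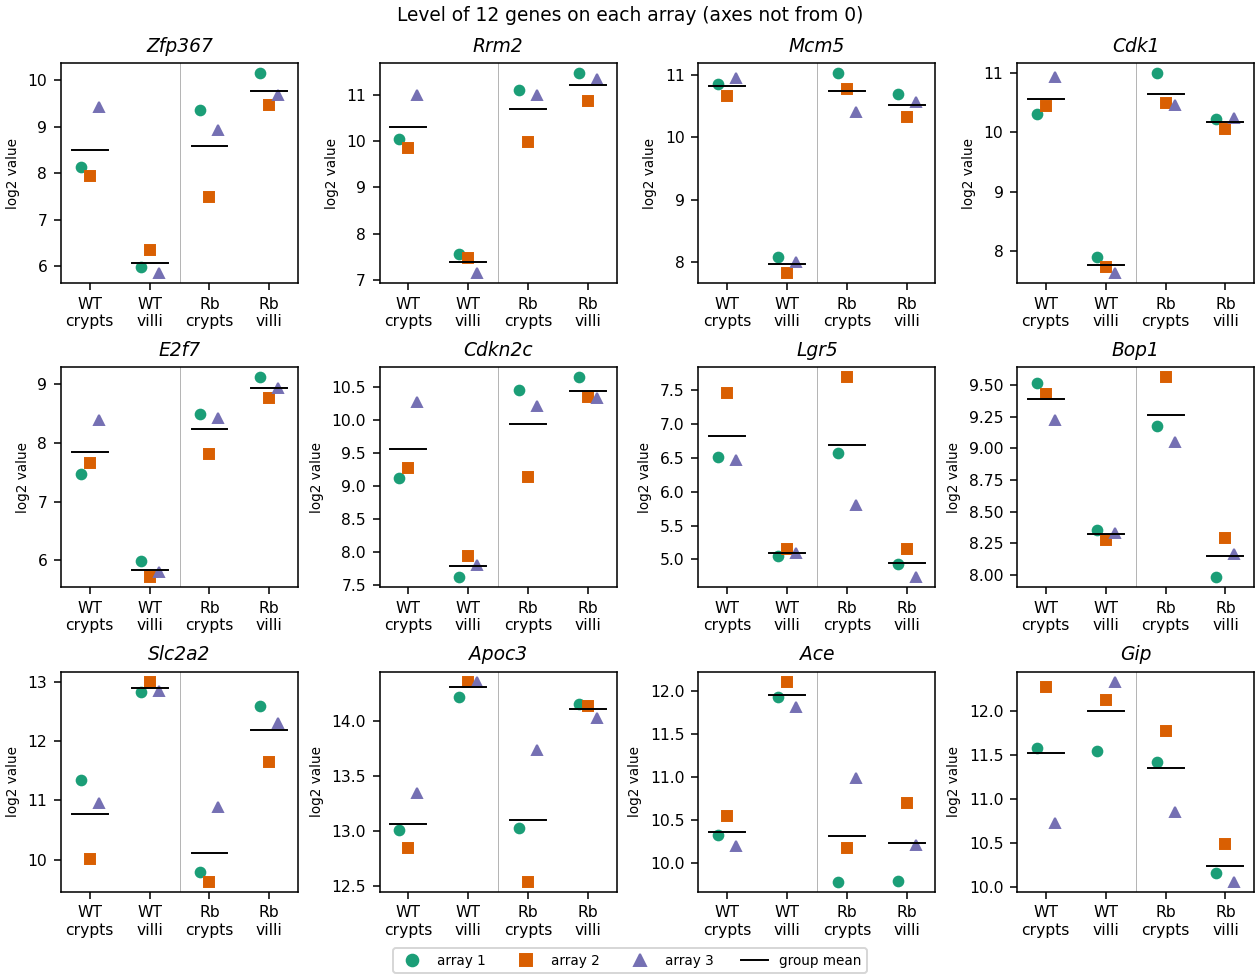
Points are single arrays (log2 value, vertical axis) of 12 named genes in WT and Rb crypts and villi, and bars are group means. Zfp367, Rrm2 and Mcm5 are low in WT villi alone among the 4 groups, whereas Slc2a2 and Lgr5 separate crypts from villi in both genotypes.

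Mitosis genes kept a small part of their gradient. In WT, 67 of 70 measured mitosis genes (G2/M included) fell in villi and 1 rose (median -2.40). In Rb 23 were lower and 0 higher (median -0.49), and the difference was positive for 63 and negative for 0 (median 1.80). The mean level of the list was 9.54, 9.02 and 8.97 in Rb crypts and 8.59, 8.61 and 8.79 in Rb villi, so the Rb groups did not overlap, and WT villi lay far lower at 6.97, 6.89 and 6.75. Without both arrays that go against their labels, 14 were lower in Rb and the difference was positive for 47 and negative for 0. Kif23, a kinesin of the final cut between daughter cells, fell in Rb from 9.56, 9.25 and 9.10 to 8.06, 8.40 and 8.40. Its Rb gradient of -1.02 ± 0.17 (limma, adjusted p = 0.00053) compared with -2.56 in WT. Aurkb and Plk1, kinases of chromosome alignment, also fell in Rb, by 0.80 ± 0.23 and 0.93 ± 0.28, and their WT gradients were -2.70 and -2.64. Mki67, a label of cycling cells, read 11.70, 11.20 and 11.50 in Rb crypts and 11.31, 10.90 and 11.23 in Rb villi, which overlapped. In WT it fell by 3.05, and the difference was 2.73 ± 0.41 (limma, adjusted p = 0.00027). Cdk1, the kinase that starts mitosis, had a Rb gradient of -0.48 ± 0.20 that was not called and a difference of 2.32 ± 0.29. Esco2, Ncapg2 and Tcf19 were among the 10 genes named for the largest positive differences, at 2.91, 3.34 and 3.25. Esco2 acts in sister chromatid cohesion and Ncapg2 in chromosome condensation.

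Checkpoint and repair genes followed at a smaller scale. Of 30 genes of the DNA damage checkpoint and recombination, 26 were lower in WT villi and 0 higher, whereas in Rb 8 were lower and 1 higher. The difference was positive for 18 and negative for 0, with a median of 1.06. Without both discordant arrays, 2 were lower and 1 higher in Rb and the difference was positive for 13. Brca1, which acts in recombination, read 8.02, 7.38 and 8.22 in Rb crypts and 8.40, 8.20 and 8.37 in Rb villi, and 5.34, 5.38 and 5.07 in WT villi. Its Rb arrays overlapped, and the difference was 2.89 ± 0.36 (limma, adjusted p = 3.6e-05). Atr, a checkpoint kinase, kept its gradient in Rb (-1.30 ± 0.32, limma, adjusted p = 0.0085, beside -2.01 in WT). Fancd2, of the crosslink repair pathway, also kept it (-0.74 ± 0.16 beside -1.09). Rmi1, which helps to dissolve recombination intermediates, was higher in Rb villi by 0.73 ± 0.14 (limma, adjusted p = 0.0012).

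Among the E2f and pocket proteins themselves, the repressors E2f7 and E2f8 lost their gradient. E2f7 read 8.49, 7.81 and 8.43 in Rb crypts and 9.12, 8.76 and 8.95 in Rb villi, against 7.48, 7.66 and 8.39 in WT crypts and 5.99, 5.71 and 5.80 in WT villi. All Rb villus arrays were above all other arrays of this gene in both genotypes. The difference was 2.71 ± 0.42 (limma, adjusted p = 0.00039), and that of E2f8 was 2.64 ± 0.42 (limma, adjusted p = 0.00045). Of 17 members of the list, 7 had a positive difference and 0 a negative one, and 4 a positive one without both discordant arrays. The others were the activator E2f2 (1.19 ± 0.26), the repressor E2f5 (0.98 ± 0.25), the dimer partner Tfdp1 (1.26 ± 0.20) and 2 subunits of the DREAM complex, Lin9 (1.88 ± 0.24) and Lin54 (0.83 ± 0.21). E2f1 and E2f3 were called in neither genotype, nor was Rbl2, a relative of Rb. Rbl1, the other relative of Rb, was 9.13, 9.21 and 8.93 in WT villi and 10.13, 10.14 and 10.40 in Rb villi, and its difference of gradients was 0.78 ± 0.27 (limma, adjusted p = 0.1).

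Of 17 G1 cyclins, kinases and inhibitors, 1 had a significant difference, Cdkn2c, an inhibitor of Cdk4 and Cdk6. It read 10.46, 9.13 and 10.22 in Rb crypts and 10.65, 10.35 and 10.34 in Rb villi, beside 9.12, 9.28 and 10.28 in WT crypts and 7.61, 7.94 and 7.79 in WT villi. The difference was 2.29 ± 0.38 (limma, adjusted p = 0.00066). The kinases that act on Rb kept their gradients: Cdk4 fell in Rb by 1.18 ± 0.20 and Cdk6 by 1.42 ± 0.33, beside -2.05 and -1.80 in WT. Ccnd1, their cyclin partner, also fell in Rb (-1.30 ± 0.40), although its Rb arrays overlapped. Of 23 p53 targets, 5 were higher and 1 lower in Rb villi, with 0 differences called in either direction. Without both discordant arrays limma called 0 of them in Rb, with 4 higher and 2 lower at an unadjusted p under 0.05. For the difference of gradients, the smallest adjusted p in that list was 0.062 in limma. By that difference, 1 gene in each direction had an unadjusted p under 0.05. Cdkn1a, a cell cycle inhibitor, rose in Rb from 11.25, 10.32 and 11.65 to 12.30, 11.99 and 12.20.

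**Figure D3:**
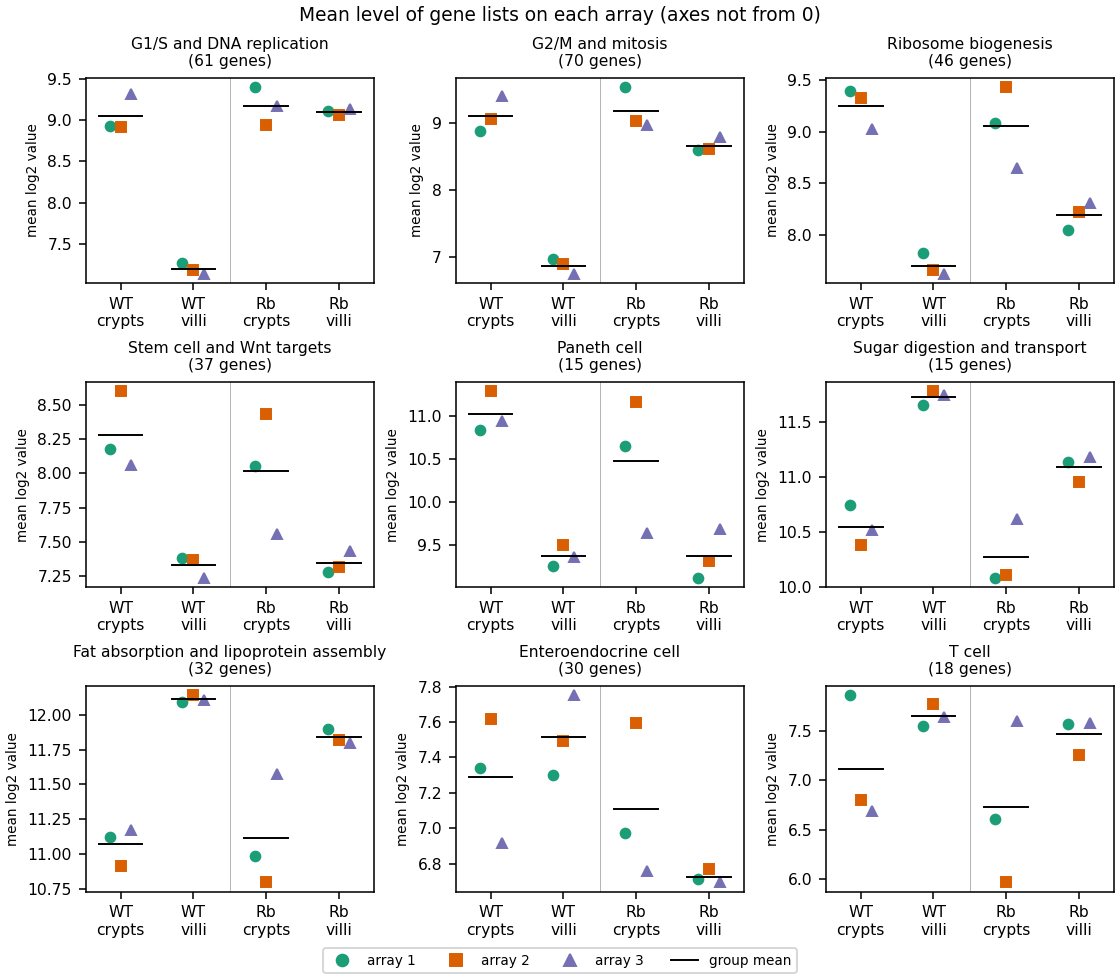
Points are the mean log2 level of a gene list on each array, and bars are group means, for WT and Rb crypts and villi. The replication list falls to 7.14 to 7.27 in WT villi but stays at 9.06 to 9.13 in Rb villi, whereas the ribosome biogenesis list falls in both genotypes.

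The growth machinery of the crypt kept its gradient at a smaller size. Of 46 ribosome biogenesis genes, 45 were lower in WT villi (median -1.46) and 40 were lower in Rb villi (median -0.86), with 0 higher in either. The difference was positive for 9 and negative for 0, with a median of 0.69. The list level was 9.08, 9.43 and 8.65 in Rb crypts and 8.05, 8.23 and 8.31 in Rb villi, without overlap. Bop1, which matures the large ribosomal subunit, fell from 9.17, 9.56 and 9.05 to 7.98, 8.29 and 8.17 in Rb. Its gradient was -1.11 ± 0.15 in Rb (limma, adjusted p = 0.00013) and -1.07 in WT, with a 95% interval of the difference of -0.47 to 0.38. Ncl, nucleolin, fell in both but by less in Rb (-1.26 ± 0.23 beside -2.47), a difference of 1.21 ± 0.32 (limma, adjusted p = 0.031). The counts moved with single arrays: without both discordant arrays, 23 genes were lower in Rb and the difference was positive for 24. Without the array labelled Rb crypts 3, 43 were lower and the difference was positive for 2.

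Myc and its targets in nucleotide synthesis were lower in Rb villi for 15 of 20 genes and in WT villi for 18 of 20. Myc itself read 9.24, 10.07 and 8.64 in Rb crypts and 7.60, 7.80 and 8.14 in Rb villi, a fall of 1.47 ± 0.29 (limma, adjusted p = 0.0022). It fell by 2.30 in WT, and the interval of the difference was -0.04 to 1.69. The difference was positive for 6 genes, with a list median of 0.82. Without both discordant arrays, 9 genes were lower in Rb and 9 differences were positive. Among them were Ctps, a CTP synthase (1.48 ± 0.23), and Mthfd2, a mitochondrial enzyme of folate metabolism (1.73 ± 0.29). Mthfd2 read 8.67, 8.45 and 9.02 in Rb crypts and 9.02, 8.91 and 9.17 in Rb villi, which overlapped, whereas WT villi lay at 6.90 to 7.29.

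Of 37 stem cell and Wnt target genes, 17 were kept and 2 flattened. Lgr5, the marker of stem cells at the crypt base, read 6.58, 7.69 and 5.80 in Rb crypts and 4.94, 5.16 and 4.73 in Rb villi, and every Rb villus array was below every Rb crypt array. The gradient was -1.75 ± 0.36 in Rb (limma, adjusted p = 0.0028) and -1.72 in WT, and the 95% interval of the difference was -1.09 to 1.04. Of the list, 18 were lower and 2 higher in Rb villi (median -0.61), beside 22 and 2 in WT (median -1.12). Ascl2 and Axin2, targets of Wnt signalling, fell in Rb by 1.16 ± 0.29 and 1.22 ± 0.31, and Smoc2 by 1.59 ± 0.33. The difference was positive for 2 members, the sodium channel subunit Scn2b (1.47 ± 0.42) and Bmi1 (0.93 ± 0.19). Bmi1, a Polycomb repressor, was turned: it rose from 8.34, 8.27 and 8.16 to 8.80, 8.69 and 8.70 in Rb and fell by 0.45 in WT. The list level was 8.44 on the array labelled Rb crypts 2 and 7.56 on that labelled Rb crypts 3, beside 7.28 to 7.43 in Rb villi. Without Rb crypts 2 only 2 members were called lower in Rb and without Rb crypts 3 it was 21.

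Of 15 Paneth cell genes, 7 were lower in Rb villi (median -1.32) and 12 in WT villi (median -1.83), with 0 differences of gradients called by limma and 1 at an unadjusted p under 0.05. The 3 with the smallest p in Rb were Kcnn4, a potassium channel (-1.14 ± 0.27), Reg4, a lectin (-1.54 ± 0.37), and Habp2, a protease (-1.41 ± 0.35). The list level was 10.65, 11.16 and 9.64 in Rb crypts and 9.11, 9.31 and 9.69 in Rb villi, so that Rb crypts 3 lay at the villus level. The list includes Fabp6, which also stands in the list of the distal intestine and had the largest difference of gradients in both (1.51). By limma 0 Paneth genes were called in Rb without the array labelled Rb crypts 2, where 6 had an unadjusted p under 0.05, and 9 were lower and 1 higher without that labelled Rb crypts 3. Of 30 goblet cell genes, 6 were lower and 1 higher in Rb villi, beside 9.65% and 7.61% of all genes. Without both arrays that go against their labels, 1 was lower and 0 higher. The secreted protein Spink4 fell by 1.39 ± 0.27, whereas Muc2, the main mucin, was 13.14, 13.41 and 13.34 in Rb crypts and 13.17, 13.44 and 13.30 in Rb villi. Notch1, the receptor that steers progenitors away from the secretory fate, fell in Rb by 1.08 ± 0.25 (limma, adjusted p = 0.0054), beside -1.33 in WT.

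Enteroendocrine genes had a negative median gradient in Rb and a positive one in WT. Of 30 genes, 6 were lower and 1 higher in Rb (median -0.33), beside 4 lower and 9 higher in WT (median 0.44), with 0 differences called by limma in either direction and 8, all negative, at an unadjusted p under 0.05. The list level was 6.97, 7.60 and 6.76 in Rb crypts and 6.71, 6.77 and 6.69 in Rb villi, beside 7.30, 7.50 and 7.75 in WT villi, which lay above all Rb villus arrays. Gip, the incretin hormone of K cells, read 11.42, 11.77 and 10.85 in Rb crypts and 10.16, 10.49 and 10.06 in Rb villi, beside 11.54, 12.12 and 12.33 in WT villi. It fell in Rb by 1.11 ± 0.34 (limma, adjusted p = 0.027), and its difference from WT was -1.58 ± 0.48 (limma, adjusted p = 0.058, interval -2.57 to -0.59). Chgb, a granin of hormone granules, fell by 1.01 ± 0.30, and Neurog3, the factor that starts this lineage, by 1.27 ± 0.38. Without the array labelled Rb crypts 2, 0 of these genes were called in Rb by limma, and 2 higher and 5 lower had an unadjusted p under 0.05.

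Of 19 tuft cell genes, 4 were higher and 0 lower in both genotypes. In WT this is close to the 18.8% of all genes called higher, and in Rb 7.61% of all genes were. Without both discordant arrays limma called 0 in Rb, with 5 higher and 0 lower at an unadjusted p under 0.05. Rgs13, a regulator of G protein signalling, read 7.18, 5.80 and 7.66 in Rb crypts and 9.04, 8.49 and 8.79 in Rb villi, a rise of 1.89 ± 0.51 (limma, adjusted p = 0.014). In WT it rose by 0.42, and the interval of the difference was -0.02 to 2.97. Dclk1, the usual tuft cell marker, rose in Rb from 5.37, 4.98 and 5.57 to 6.76, 5.80 and 5.97 (0.87 ± 0.28, limma, adjusted p = 0.035).

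Absorptive genes kept their direction at a smaller size. Of 15 sugar digestion and transport genes, 8 were higher and 0 lower in Rb villi (median 0.76), beside 14 higher and 1 lower in WT (median 1.26). Of 24 peptide genes the counts were 9 and 1 in Rb (median 0.46) and 19 and 1 in WT (median 0.88). Of 32 fat absorption genes they were 17 and 0 in Rb (median 0.57) and 27 and 0 in WT (median 0.99). Over these 3 lists the difference was called for 1 gene, Ace. With every probe set tested, the difference was called negative for 1 of 18 sugar, 2 of 40 peptide and 0 of 53 fat probe sets, and positive for 0. On the array labelled Rb crypts 3 the fat list read 11.57, beside 10.98 and 10.80 on the other Rb crypt arrays and 11.80 to 11.90 in Rb villi. Without that array 25 fat genes were higher in Rb and the median difference was -0.06, against -0.32 with it. Without both arrays that go against their labels, 3 sugar, 2 peptide and 3 fat genes were higher in Rb and 0 lower.

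Slc2a2, the transporter that passes glucose and fructose on to the blood, was 1 of 5 villus genes named for a small difference from WT. They were picked for the smallest difference of gradients among the 100 steepest WT genes of that side. A Rb gradient close to that of WT therefore follows from the choice. It read 9.79, 9.63 and 10.90 in Rb crypts and 12.60, 11.65 and 12.30 in Rb villi, and the groups did not overlap. The gradient was 2.08 ± 0.35 in Rb (limma, adjusted p = 0.00063) and 2.12 in WT, with an interval of the difference of -1.06 to 0.98. Slc5a1, the sodium-glucose cotransporter of the brush border, rose by 0.83 ± 0.22, and lactase (Lct) by 0.82 ± 0.19. Tmprss15, enteropeptidase, which activates trypsinogen, rose from 4.65, 3.83 and 5.05 to 8.34, 6.42 and 7.25 in Rb (2.82 ± 0.50, limma, adjusted p = 0.00095). The peptide transporter Slc15a1 rose by 0.86 ± 0.29 and the amino acid transporter Slc6a19 by 1.15 ± 0.27. Of the fat genes, Cidec, which enlarges lipid droplets, rose by 1.83 ± 0.35 in Rb and 1.80 in WT. Apoc3 and Apoa4, apolipoproteins of chylomicrons, rose by 1.01 ± 0.22 and 0.58 ± 0.14.

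The 10 largest rises along the Rb axis under the naming rule included enzymes of glucose, drug and peptide handling, a lectin and interferon targets. G6pc, the enzyme that releases free glucose, read 7.07, 7.03 and 9.20 in Rb crypts and 11.99, 9.80 and 10.81 in Rb villi, all 3 above the crypt arrays. It rose by 3.10 ± 0.53 in Rb, 8.56-fold (limma, adjusted p = 0.00075), and by 2.02 in WT. Pdk4, which shuts pyruvate out of oxidation, rose by 2.70 ± 0.63 in Rb and 4.28 in WT. Cyp2c29, a drug-metabolising cytochrome, rose by 2.58 ± 0.69, and Mbl2, a mannose-binding lectin, by 2.47 ± 0.49. Enpp3, an ectoenzyme of the villus tip, rose from 11.31, 8.67 and 11.83 to 13.31, 12.82 and 12.88 (2.40 ± 0.51). None of these 5 had a significant difference from WT. Cyp1a1, the classic target of the aryl hydrocarbon receptor to which the injected compound binds, read 6.17, 10.84 and 7.28 in Rb crypts and 11.27, 8.56 and 12.28 in Rb villi. Its arrays overlapped and the gradient of 2.61 ± 0.96 was not called (limma, adjusted p = 0.065).

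The 10 largest falls along the Rb axis under the naming rule included ion channel regulators, a lipase and matrix genes. Clca3b, a chloride channel regulator, read 11.34, 11.44 and 10.04 in Rb crypts and 8.12, 7.91 and 8.73 in Rb villi, without overlap. It fell by 2.69 ± 0.37 in Rb (limma, adjusted p = 0.00018) and by 3.82 in WT. Kcne3, a potassium channel subunit used in chloride secretion, fell by 1.81 ± 0.36 in Rb and 2.65 in WT. Lipg, an endothelial-type lipase, fell by 1.98 ± 0.25 and 2.27. The matrix genes Mgp and Dcn fell by 2.13 ± 0.66 and 2.05 ± 0.59, and their WT gradients were not called. Fibroblast and smooth muscle markers, 18 in all with 1 lower and 0 higher in Rb, had mean levels of 5.60, 6.31 and 5.46 in Rb crypts and 5.11, 5.14 and 5.59 in Rb villi. Their part in the fall of Mgp and Dcn was not tested.

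Regulators of the enterocyte state had a median gradient of 0.37 in Rb and 0.42 in WT. Of 29 transcription factors, 11 were higher and 3 lower in Rb villi, beside 14 and 6 in WT, and 0 differences of gradients were called by limma in either direction, with 3 positive and 2 negative at an unadjusted p under 0.05. Without both discordant arrays, 4 were higher and 1 lower in Rb. With every probe set of these factors tested, the difference was called negative for 2 of 72 and positive for 0. Nr1i2, the xenobiotic receptor PXR, rose from 8.01, 8.09 and 8.30 to 9.70, 9.32 and 9.68 in Rb (1.43 ± 0.24, limma, adjusted p = 0.00057) and by 1.38 in WT. Its interval of the difference was -0.64 to 0.74. Ppargc1a, a coactivator of mitochondrial genes, rose by 1.31 ± 0.24 and Klf4, a factor of cells that have left the cycle, by 1.0 ± 0.24. Cdx1, a factor of the lower axis, fell by 0.94 ± 0.19 in Rb and 1.16 in WT, whereas Hnf4a was 12.15 to 12.47 in Rb crypts and 12.27 to 12.35 in Rb villi. Over the mean of its probe sets, however, Hnf4a fell in Rb by 0.46 (limma, adjusted p = 0.0084). Of 30 genes of the villus tip and the BMP response, 12 were higher and 2 lower in Rb, beside 18 and 2 in WT, and in Rb 4 and 0 without both discordant arrays. Id2, a BMP target that opposes basic helix-loop-helix factors, read 9.14, 8.43 and 9.55 in Rb crypts and 10.80, 10.44 and 10.40 in Rb villi. It rose by 1.5 ± 0.28 in Rb (limma, adjusted p = 0.0015) and 0.39 in WT, and the difference of 1.12 ± 0.40 was not called (limma, adjusted p = 0.12).

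**Figure D4:**
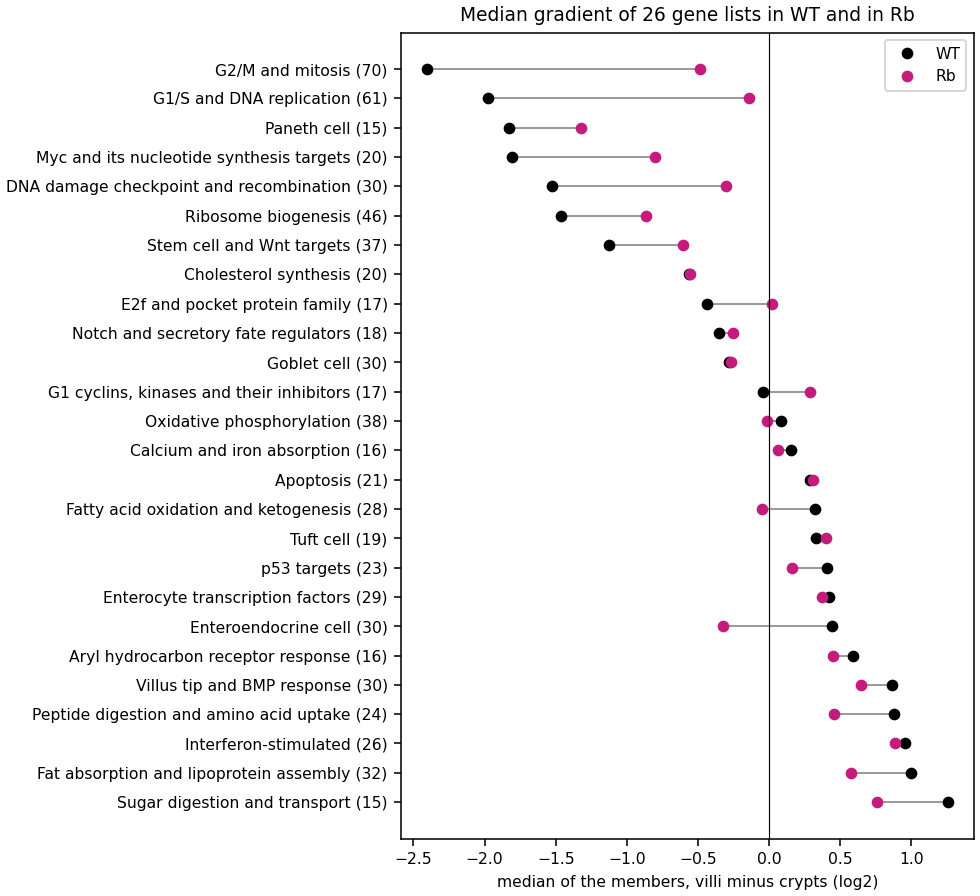
Points give the median gradient (villi minus crypts, log2, horizontal axis) of the members of each of 26 gene lists in WT (black) and in Rb (magenta), joined by a line. The replication and mitosis lists have WT medians of -1.97 and -2.40 and Rb medians of -0.14 and -0.49, and the absorption lists are positive in both genotypes.

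In mitochondrial and lipid metabolism, Bdh1 and Cpt1a fell. Bdh1, which makes the ketone body hydroxybutyrate, fell from 11.55, 11.74 and 11.23 to 10.57, 10.46 and 10.25 in Rb (-1.08 ± 0.12, limma, adjusted p = 0.0001) and by 0.80 in WT, and the Rb groups did not overlap. Cpt1a, which brings fatty acids into mitochondria, fell by 0.94 ± 0.18 in Rb. Of 28 genes of fatty acid oxidation and ketogenesis, 3 were higher and 6 lower in Rb (2 and 2 without both discordant arrays), beside 10 and 2 in WT, and 0 differences were called by limma in either direction, with 9 negative at an unadjusted p under 0.05 (smallest adjusted p = 0.055, for Decr1). Of 20 cholesterol synthesis genes, 7 were lower and 1 higher in Rb villi, with the same median of -0.56 in Rb and WT, and in Rb 2 were lower and 0 higher without both discordant arrays. Lss fell by 1.15 ± 0.27 and Dhcr7 by 0.86 ± 0.20, both enzymes of the sterol pathway. Of 38 oxidative phosphorylation genes, 2 were higher and 5 lower in Rb (median -0.02), beside 17.3% of all genes called in either direction. By direction, the shares over all genes were 7.61% higher and 9.65% lower in Rb, and 18.8% and 18.6% in WT.

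Mineral transport contained 1 flattened gene. Tfrc, the transferrin receptor, read 12.25, 12.27 and 12.04 in Rb crypts and 11.13, 11.36 and 11.72 in Rb villi, and 12.32, 12.06 and 12.35 against 10.71, 10.23 and 9.95 in WT. Both genotypes fell without overlap, and the difference was 1.17 ± 0.34 (limma, adjusted p = 0.049). Slc46a1, the proton-coupled folate transporter, rose by 1.79 ± 0.34 in Rb and 3.27 in WT, a difference that was not called (limma, adjusted p = 0.077). S100g, a calcium-binding protein of the duodenum, rose from 7.73, 7.20 and 8.45 to 10.38, 9.09 and 9.04 in Rb (1.71 ± 0.55, limma, adjusted p = 0.037).

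A small group of villus genes did lose their gradient. Apoa2, an apolipoprotein of high-density lipoprotein, read 6.14, 6.05 and 5.86 in Rb crypts and 6.04, 5.95 and 5.72 in Rb villi. In WT it read 5.64, 5.56 and 5.94 in crypts and 7.54, 7.89 and 7.86 in villi, and the difference was -2.17 ± 0.40 (limma, adjusted p = 0.0019). The WT villus arrays thus stood above all 9 other arrays. Ace, the angiotensin-converting peptidase of the brush border, read 9.79, 10.17 and 10.99 in Rb crypts and 9.79, 10.70 and 10.21 in Rb villi, beside 11.93, 12.11 and 11.82 in WT villi. Its difference was -1.67 ± 0.40 (limma, adjusted p = 0.016). Ctsf, a lysosomal cathepsin, read 5.08, 5.32 and 4.99 in Rb crypts and 4.43, 4.91 and 5.06 in Rb villi, and differed from WT by -1.83 ± 0.25 (limma, adjusted p = 9.1e-05). Crp, an acute-phase protein, Rec8, a cohesin subunit of meiosis, and Klf15, a transcription factor of fasting metabolism, differed by -1.82 ± 0.49, -1.74 ± 0.34 and -1.85 ± 0.53. Arsg, a lysosomal sulfatase, kept a gradient of 1.11 ± 0.28 in Rb beside 2.77 in WT. The largest of these differences was that of Elobl (-2.88 ± 0.53), an elongin B-like gene.

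Other genes that differed stood outside the lists. Muc4, a membrane mucin, read 7.22, 4.61 and 7.06 in Rb crypts and 8.44, 7.66 and 7.64 in Rb villi, beside 7.40, 8.12 and 7.83 in WT crypts and 4.16, 6.66 and 6.58 in WT villi. Its difference was 3.60 ± 0.83 (limma, adjusted p = 0.012), with the array labelled Rb crypts 2 and WT villi 1 each far below its group. Siglecf, a sialic acid-binding lectin, rose by 2.12 ± 0.30 in Rb and 0.58 in WT, a difference of 1.55 ± 0.42 (limma, adjusted p = 0.033). It was named after its values were seen, as were the next 4 genes. Casp8ap2, which acts in histone gene expression, rose by 1.16 ± 0.13 in Rb and had a WT gradient of -0.28 that was not called. Of the 17 turned genes of the crypt side, Atad5, which unloads the replication clamp, had gradients of 0.72 ± 0.24 in Rb and -1.73 in WT. Cep290, a protein of the cilium base, had 1.14 ± 0.22 and -0.77, and Etaa1, an activator of the Atr kinase, 0.60 ± 0.20 and -1.16. A further 305 genes were higher and 335 lower in Rb villi without being called in WT, which does not show that the gradients differ.

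Among T cell and interferon genes, all calls in Rb were higher in villi, and 0 stayed called without 1 or both discordant arrays. Of 18 T cell markers, 4 were higher and 0 lower in Rb villi, beside 7.61% and 9.65% of all genes, with mean levels of 6.61, 5.97 and 7.60 in Rb crypts and 7.56, 7.26 and 7.58 in Rb villi, so that Rb crypts 3 lay at the villus level. Without the array labelled Rb crypts 2, 0 were called by limma and 2 had an unadjusted p under 0.05. Of 26 interferon-stimulated genes, 6 were higher and 0 lower in each genotype, beside 7.61% of all genes higher in Rb and 18.8% in WT. Without both discordant arrays limma called 0 in Rb, with 6 higher and 0 lower at an unadjusted p under 0.05. Ifit1, an inhibitor of viral translation, read 7.22, 5.02 and 7.14 in Rb crypts and 8.86, 8.46 and 8.65 in Rb villi, a rise of 2.20 ± 0.72 (limma, adjusted p = 0.04). Rtp4, another interferon target, rose by 2.30 ± 0.57 in Rb and 2.34 in WT, and was among the genes named for a small difference from WT. The part of immune cells in these values was not tested. Of 21 apoptosis genes, 7 were higher and 1 lower in Rb, beside 10 and 1 in WT, and 2 were higher and 0 lower in Rb without both discordant arrays. Among them the inhibitor Xiap rose by 0.84 ± 0.17 and Bcl2l11, a death-promoting partner of Bcl2, by 0.87 ± 0.27.

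The promoter motif was more frequent among the flattened crypt genes than among the kept ones. Of 603 flattened crypt-side genes with a promoter, 94 (15.6%) held it. Of 1012 crypt-side genes kept and not flattened, 44 (4.35%) did, close to the 3.8% of all genes. Of 145 flattened villus-side genes 4 (2.76%) held it. By list, the share was 37.3% of 51 G1/S genes, 46.2% of 13 E2f and pocket protein genes, 33.3% of 27 checkpoint genes, 10.2% of 59 mitosis genes and 9.52% of 42 ribosome biogenesis genes. With only TTTGGCGC and TTTCCCGC counted, the shares were 12.4% of flattened and 2.77% of kept crypt-side genes. These are descriptions, and genes of these lists share functions and were not sampled independently.

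The same axis was read in mice that lacked E2f1, E2f2 and E2f3 together with Rb. Of the 61 G1/S genes, 57 were lower in QKO villi (median -1.13), beside 6 in Rb (median -0.14). Over all genes 33.4% were called in QKO, 13.5% higher and 19.9% lower in villi. The Rb gradient minus the QKO gradient was positive for 39 of them and negative for 0, with a median of 0.95. Over all genes it was called for 1373 (7.55%), 790 (4.34%) positive and 583 (3.2%) negative, and for 833 without Rb villi 2 and 793 without Rb villi 3. Of the 70 mitosis genes, 67 were lower in QKO villi (median -1.43), and the difference from Rb was positive for 18, with a median of 0.82. In TKO mice, where 15.4% of all genes were called, 6.43% higher and 8.99% lower, 50 G1/S genes and 48 mitosis genes were lower in villi, with medians of -0.79 and -0.86. Mcm5, Rrm2 and E2f7 show where single genes stood: the QKO gradients were -1.55, -1.55 and -0.75, beside -0.21, 0.53 and 0.70 in Rb. All QKO arrays had high Y-linked levels and high bacterial controls of labelling, and the hybridization controls rose from crypts (10.55 to 10.98) to villi (11.23 to 11.45) in QKO, the reverse of Rb. The labelling controls were also high in TKO, with means of 10.63 in villi and 10.71 in crypts, beside 6.44 and 5.67 in Rb. Genes of other cells differed too. Of 18 T cell markers, 16 were higher and 0 lower in QKO villi, with a median of 2.74 beside 0.80 in Rb. Of 10 pancreatic acinar genes, 9 were lower and 0 higher in QKO villi, with a median of -2.15 beside 0.09 in Rb. Sex, these technical measures and the content of other cells cannot be told apart from genotype here. The differences of Rb from WT and from QKO use the same 6 Rb arrays.

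**Figure D5:**
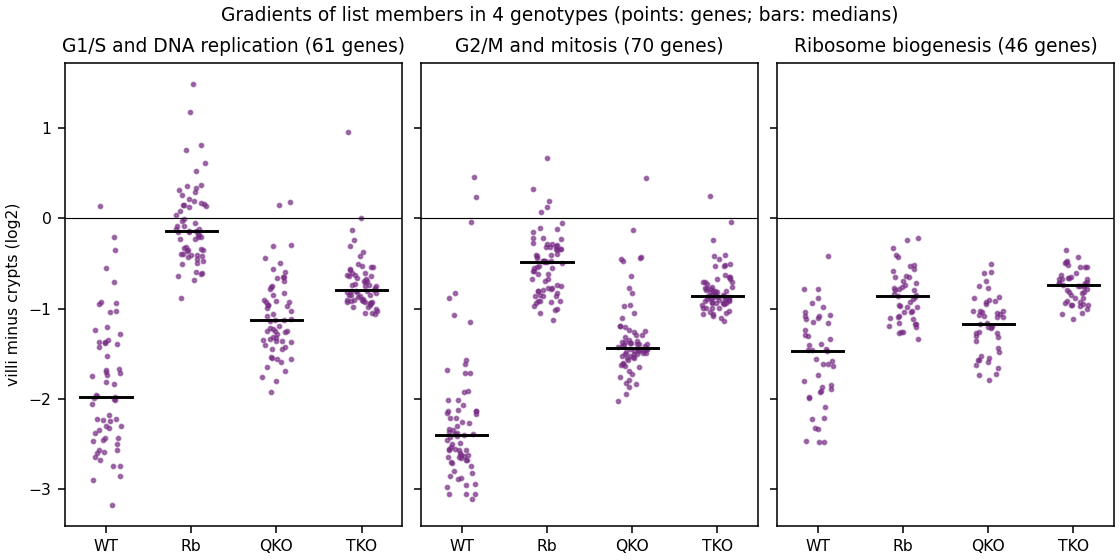
Each point is the gradient (villi minus crypts, log2) of a gene in WT, Rb, QKO and TKO mice, for 3 lists, and bars are medians. For the replication list the medians are -1.97, -0.14, -1.13 and -0.79 in that order.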

How the data were processed

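The samples were 24 Affymetrix mouse arrays, 3 for each of 8 groups, assigned from their titles and source names. Trizol was used to extract the RNA and 3 ug were made into biotin-labelled cRNA, per the labels' protocols. The authors deposited log2 expression values per probe set. The sources used here do not say how they were summarised or normalized. The values ran from 2.29 to 14.9, and their number of arrays limits the precision. The platform annotation named 1 gene for 34945 of 45101 probe sets, several for 932 and none here for 9160, and 64 were controls. Symbols were updated through Entrez identifiers for 34741, and each of 18193 genes took its probe set of highest mean.

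Group means over all 24 arrays were fitted with limma 3.58.1 (R 4.3.3), moderated along an intensity trend (16 residual and 4.86 prior degrees of freedom), and p-values were adjusted by Benjamini-Hochberg over all genes. The contrasts were villi minus crypts within a genotype, and differences of these. On data simulated for 18193 genes, 22.4%, 77.6% and 98.5% of Rb gradients of 0.5, 1 and 2 were called, and 0.0445% of unchanged genes. For the difference from WT the shares were 5.97%, 52.2% and 90.9%, and 0.0167%. The simulation changed 67, 67 and 66 genes by these sizes in Rb villi alone, with independent normal noise and no discordant array. Far more genes were called in the real data, so these shares hold for the simulated setting only. Array correlations were 0.983 to 0.991 within Rb crypts and 0.993 to 0.994 within Rb villi, and 0 pairs held identical values. Intervals are at 95%.

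The comparison, the 26 gene lists, the 12 marker lists and the named genes were chosen with earlier results of these data known. The rule named the 10 largest called rises and falls of the Rb gradient and of its difference from WT. It also named 5 genes on each side, 3 members of each list by p, and Rb1, Rbl1, Rbl2 and E2f1 to E2f8. Those 5 had the smallest difference from WT among the 100 steepest WT genes of the side, with no Rb call required. The largest changes needed a group mean past 6.39 (the median over all values) and for the Rb gradient arrays without overlap, and left out predicted genes. Not every gene named by the rule is described, and other list members were named for their known role. The alternatives were those given in the closing section. Promoters came from RefSeq (GRCm38.p6). Figures used matplotlib 3.10.9.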

Additional observations from a re-analysis of the deposited data

Results flagged for a closer look

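Differences between genotypes in the villus minus crypt gradient were called, by a test of the difference itself in limma, for 950 genes between Rb and WT and for 1373 genes between Rb and QKO. Both counts use the same 6 Rb arrays. Among genes that the naming rule allowed, the largest positive differences from WT were those of Zfp367 (3.61), Muc4 (3.60), Rrm2 (3.43), Ncapg2 (3.34) and Tcf19 (3.25). In these the Rb villus arrays stayed near or above the crypt level. Under the same rule, the largest negative differences were those of Elobl (-2.88), Apoa2 (-2.17), Slc6a20b (-1.89), Klf15 (-1.85) and Ctsf (-1.83). These are villus genes of WT without a called gradient in Rb. Plscr2 had a difference of -2.41 but was too dim for the rule. No explanation of these differences was tested.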

How the results depend on the processing

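Differences of gradients in the replication and mitosis lists kept their sign under every alternative run for lists. Of 884 list medians under these settings, 833 moved by less than the spread between Rb arrays, 50 moved by more and 1 reversed: the p53 target difference was 0.059 with the Y-linked level as a covariate, against -0.074. Of the genes named, 1 reversed: the Rb gradient of Hnf4a was -0.46 over the mean of its probe sets, against 0.0066. Over all settings, 5406 values of named genes were compared, called or not, and only called ones could lose a call. Of these values, 314 lost their call and 48 gained one. Of 81 named Rb calls 32 held under every setting that tested them, and of 49 named differences 36. Without Rb crypts 2, 42 of the 81 and 42 of the 49 held.

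That covariate left 1753 Rb calls, 596 differences from WT, 724 from QKO, 832 kept crypt-side genes and 59 flattened villus-side genes. Array weights gave 5895 Rb calls and 1896 differences from WT, with 2298 kept crypt-side, 1813 kept villus-side and 595 flattened villus-side genes. With each of 34945 probe sets tested, calls were of probe sets, not genes: 5410 in Rb, 11674 in WT and 2303 for Rb minus QKO, with 2520 and 1629 kept and 1095 flattened on the crypt side. Centring gave 1648 kept and 469 flattened villus-side genes, quantile normalization 265 flattened ones. Fitting only the groups compared gave 291 flattened villus-side genes and 533 differences from QKO. Leaving out both arrays that go against their labels gave 1154 Rb calls, 587 and 397 kept genes and 113 flattened villus-side genes. With 2 of the 4 motifs the shares were 2.77% of all genes, 12.4% of flattened and 2.77% of kept crypt-side genes. Why the counts moved under these settings was not tested.

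Leaving out each array gave 1212 to 4042 Rb calls, 5478 to 6937 WT calls, 601 to 896 differences from WT and 793 to 1726 from QKO. Kept genes ranged from 624 to 1794 (crypt side) and 431 to 1336 (villus side), and flattened genes from 506 to 717 and 73 to 146. The replicate numbers did not pair Rb crypts with villi (correlations of 0.06, -0.01 and -0.24) or WT ones (0.01, 0.13 and 0.00), whereas in QKO they were 0.55, 0.25 and 0.37. With a replicate block the counts were 3768 (Rb), 7026 (WT), 1185 (difference from WT) and 1662 (difference from QKO). That block joined Rb villi 1 and 3, with Y-linked levels of 8.12 and 8.50, to Rb crypts 1 and 3, with 3.08 and 3.24. The arrays so joined differed in sex.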

Other observations

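Some gene groups belong in no comparison above. For the counts in this section, the shares over all genes were 7.61% higher and 9.65% lower in Rb villi, and 18.8% and 18.6% in WT villi. Of 18 Notch and secretory fate regulators, 2 were higher and 3 lower in Rb villi and 2 higher and 7 lower in WT villi. Dtx4 fell in Rb by 0.98 ± 0.26, and Numb, which holds Notch back, rose by 0.56 ± 0.15. Of 16 genes of the aryl hydrocarbon receptor response, 2 were higher and 0 lower in Rb villi, beside 8 and 0 in WT. These 2 were Xdh, xanthine dehydrogenase (1.19 ± 0.28), and Ugdh, which makes the substrate of glucuronidation (0.67 ± 0.16). Of 16 calcium and iron genes, 4 were higher and 2 lower in Rb, and the pore-forming claudin Cldn2 fell by 1.43 ± 0.24.

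Genes of other cells and of intestinal regions varied between single arrays. The mean of 6 class II presentation genes was 8.57, 9.46 and 7.35 in Rb crypts and 8.61, 7.72 and 10.49 in Rb villi, and limma called 0 of them, with 0 at an unadjusted p under 0.05. Of 8 genes of the proximal intestine, 3 were higher and 0 lower in Rb villi, and of 10 of the distal intestine 2 were higher and 1 lower. The distal list read 8.67, 9.02 and 8.91 in Rb crypts and 8.20, 9.13 and 9.30 in Rb villi. Of 11 B and plasma cell, 14 macrophage and dendritic cell and 14 endothelial markers, 0, 1 and 1 were higher and 1, 0 and 1 lower in Rb villi. Of 3 erythroid, 10 pancreatic acinar and 8 enteric nerve and glia markers, limma called 0 in Rb in either direction, and 1, an enteric nerve and glia marker, had an unadjusted p under 0.05. These 3 lists had mean levels below 6.39, the median of all values, on every Rb array.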
